A study of Mus musculus with 3 samples.

Results

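Slco1c1, Dio2, Thra and Thrb, 4 of the 27998 genes measured, encode a carrier of thyroid hormone, the enzyme that activates it and its receptors. They were taken by symbol from the 3 count matrices, and each symbol matched 1 row. They were selected on measured values of these same cells, among them the low Dio2 level in the astroglia of the hGFAP-Cre mutant, so differences between genotypes are given as descriptions with no test. The study made 1 single-cell RNA library for each of 3 mouse genotypes, from dorsal cortical tissue taken on postnatal day 2 and sorted for tdTomato, after the dye FlashTag had been injected on embryonic day 18. Map2k1 and Map2k2 encode the kinases MEK1 and MEK2, which activate ERK, and the control had loxP-flanked (floxed) alleles of both. The Emx1-Cre mutant (Emx1-Cre; Map2k1/2-dcko) lacked both genes where Cre was driven by Emx1, a gene of early cortical progenitors. The hGFAP-Cre mutant (hGFAP-Cre; Map2k1/2-dcko) used the human GFAP promoter, which is active in radial glia and their offspring. The labels call the control wild type elsewhere and do not name the allele behind tdTomato, the number of pups or their sex. The series asks how NOTCH, ERK and SHH signalling set the fate of glia and bulb interneurons, and the comparison here is of each mutant with the control.

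Thyroxine, the main hormone in blood, must be carried across the endothelium and into glia. Slco1c1 encodes a thyroxine carrier of brain endothelium and astrocytes. Dio2 encodes the deiodinase that removes an outer-ring iodine from thyroxine and so makes triiodothyronine, the form that binds the nuclear receptors. In brain this enzyme is known from astrocytes and from tanycytes, and neurons take up much of the product. Thra and Thrb encode the receptors, which repress or activate their target genes depending on whether hormone is bound, with corepressors and coactivators as partners.

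The libraries held 11886 barcodes in the control, 13214 in the Emx1-Cre mutant and 13139 in the hGFAP-Cre mutant. After filtering, 9513, 12196 and 12063 cells were left, with a median of 6427, 4988.5 and 5318 UMIs (unique molecular identifiers, 1 per captured transcript). The shallowest barcode had 500 UMIs in the control but 2644 and 3065 in the mutants, so shares of cells are also given after thinning each cell to 2000 UMIs. Of each library's barcodes, 0.734% to 0.769% also occurred in another library. Of 32 clusters, 28 were named, in 11 classes. Astroglia-like cells numbered 2275, 2049 and 3173, had all 12 astroglia markers at 10 CPM or more in every library, and had median depths of 8370, 7457 and 6039 UMIs. CPM is a gene's UMIs per 1000000 UMIs of the same cells. Over all kept cells the levels of Map2k1 were 16.7, 13.9 and 16.2 CPM, those of Map2k2 196, 217 and 214 CPM, and reads from the 3′ end of a transcript need not show a deletion elsewhere in it. Xist was at 1460.2 CPM in the control and at 0.163 and 0.948 CPM in the mutants, while Ddx3y had no UMI in the control and was at 37.1 and 45.5 CPM in the mutants. Sex and genotype therefore cannot be told apart. With 1 library per genotype no difference has a replicate check, no test between genotypes was made, and the 95% intervals below cover counting error only.

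Slco1c1 (ENSMUSG00000030235) lies on chromosome 6 of GRCm38 at 141524368 to 141570177, on the plus strand, and Dio2 (ENSMUSG00000007682) on chromosome 12 at 90724552 to 90738438, on the minus strand. Both had lower levels in the astroglia-like cells of the hGFAP-Cre mutant, and their RefSeq promoters (GRCm38.p6, 250 bases before to 50 after the start site) are printed 5′ to 3′ for that reason, in gene orientation. Capitals mark the cAMP response element TGACGTCA and the TATA box TATAAA.
Slco1c1, chr6:141524104-141524403, plus strand: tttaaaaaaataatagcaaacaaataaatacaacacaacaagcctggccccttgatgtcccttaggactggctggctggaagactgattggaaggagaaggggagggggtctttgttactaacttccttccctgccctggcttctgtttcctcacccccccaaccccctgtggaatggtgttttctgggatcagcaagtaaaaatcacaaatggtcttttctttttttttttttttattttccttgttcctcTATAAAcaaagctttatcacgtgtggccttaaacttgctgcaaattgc
Dio2, chr12:90738989-90739288, minus strand: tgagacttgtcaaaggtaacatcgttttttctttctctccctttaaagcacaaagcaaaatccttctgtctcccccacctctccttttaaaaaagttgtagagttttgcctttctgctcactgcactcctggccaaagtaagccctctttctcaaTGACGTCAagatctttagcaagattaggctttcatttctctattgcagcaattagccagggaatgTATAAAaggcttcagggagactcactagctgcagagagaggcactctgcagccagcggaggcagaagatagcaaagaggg
Dio2 held 1 cAMP response element, starting 95 bases before its start site, and a TATA box starting 30 bases before it. That RefSeq start site lies 600 bases upstream of the GENCODE one, so the printed window is outside the gene span given above. Searched on both strands, the first motif was in 1.79% and the second in 13.6% of 32851 promoters of this length. Slco1c1 held no cAMP response element. Its TATA box began at base 3 after the RefSeq start site, which is 30 bases before the start of the GENCODE transcript Slco1c1-201. Neither window held the ETS core CCGGAAG, which 8.86% of promoters had, the AP-1 site TGANTCA (7.81%) or the thyroid hormone response core AGGTCA (16.3%). These matches describe letters only. The windows held 1 CpG in Slco1c1 and 3 in Dio2, against a median of 7. Of the 4 genes 3 matched the promoter table, and the windows of Thrb are not printed because its counts were few.

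Slco1c1, the carrier, had its highest level in endothelial-like cells and its next highest in astroglia-like cells. In endothelial-like cells it was at 970.2 CPM in the control (95% interval 921 to 1021, 97 cells) and 928 CPM in the hGFAP-Cre mutant (836 to 1027, 51 cells), a ratio of 0.956 (0.851 to 1.07). The Emx1-Cre mutant had only 43 such cells, under the 50 set for a comparison, and they were at 428 CPM (359 to 505), an interval apart from the control's. In the astroglia-like cells the level was 249 CPM in the control (243 to 256), 59.0 CPM in the Emx1-Cre mutant (55.4 to 62.8) and 92.2 CPM in the hGFAP-Cre mutant (88.3 to 96.3). The 3 intervals lay apart, with both mutants below the control. The log2 ratio to the control, taken with 5 CPM added to each level, was −1.99 for the Emx1-Cre mutant and −1.39 for the hGFAP-Cre mutant. In ratios of CPM the gene was 4.22-fold lower in the first (3.95 to 4.52) and 2.70-fold lower in the second (2.57 to 2.84).

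Slco1c1 was also seen in fewer astroglia-like cells of the mutants. At least 1 UMI was found in 72.9% of control (71.0% to 74.7%), 29.5% of Emx1-Cre (27.5% to 31.5%) and 40.0% of hGFAP-Cre cells (38.3% to 41.8%). After thinning to 2000 UMIs the shares were 39.6%, 11.5% and 16.8%. Microglia-like cells, which should lack the gene, had a UMI in 2.07%, 0% and 0.332% of cells at median depths of 11145, 4836 and 6568 UMIs. No microglia-like cell had one after thinning, so the astroglial shares lie above the level of free RNA. Endothelial markers in the astroglia-like cells summed to 7.33, 29.4 and 7.64 CPM over 9 genes, against 9880 to 10455 CPM in the endothelial-like cells. Tie1 and Ly6c1 were at 0 in the Emx1-Cre cells. Markers of other classes also moved in the astroglia-like cells. The 10 ependymal markers summed to 21.4, 85.7 and 359.7 CPM, with Ccdc153, Tmem212 and Mcidas at 0 in the control. The 7 multipotent progenitor markers summed to 1229, 446 and 309.98 CPM. The 8 oligodendrocyte precursor markers summed to 631, 267 and 108 CPM, with 3, 2 and 2 of them at 10 CPM or more. Olig1 and Olig2 are on both of these lists. The 12 interneuron lineage markers summed to 828, 398 and 865 CPM, and the 8 mural markers to 96.7, 100 and 205 CPM. The 12 astroglia markers themselves summed to 7088, 4211 and 4409.5 CPM. Their part in the levels of Slco1c1 and Dio2 was not tested.

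Progenitors of the control also had Slco1c1, and those of the mutants less. Multipotent progenitor-like cells, a class of dividing precursors, were at 83.6 CPM in the control (76.4 to 91.1) and 11.2 CPM in the hGFAP-Cre mutant (6.14 to 18.8), and the Emx1-Cre mutant had 14 such cells. Excitatory intermediate progenitor-like cells, which express Eomes, were at 59.9 CPM in the control (51.4 to 69.4), 0.652 CPM in the Emx1-Cre mutant (0.212 to 1.52) and 16.0 CPM in the hGFAP-Cre mutant (14.3 to 17.9). The order control, hGFAP-Cre, Emx1-Cre was the same in all 4 clusters of that class. In its cluster 8, led by Neurog2 and Eomes, 52 UMIs in 53 control cells compared with none in 460 Emx1-Cre cells and 112 in 927 hGFAP-Cre cells. The 12 astroglia markers moved the same way in that class, summing to 410.1, 120 and 259 CPM, and in the multipotent progenitor-like cells, at 2716 and 1154 CPM. Their part in the result was not tested. Cajal-Retzius-like cells, microglia-like cells and oligodendrocyte precursor-like cells were at or below 2.64 CPM in every library. Within each library the intervals of these 3 classes overlapped.

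**Figure D1:**
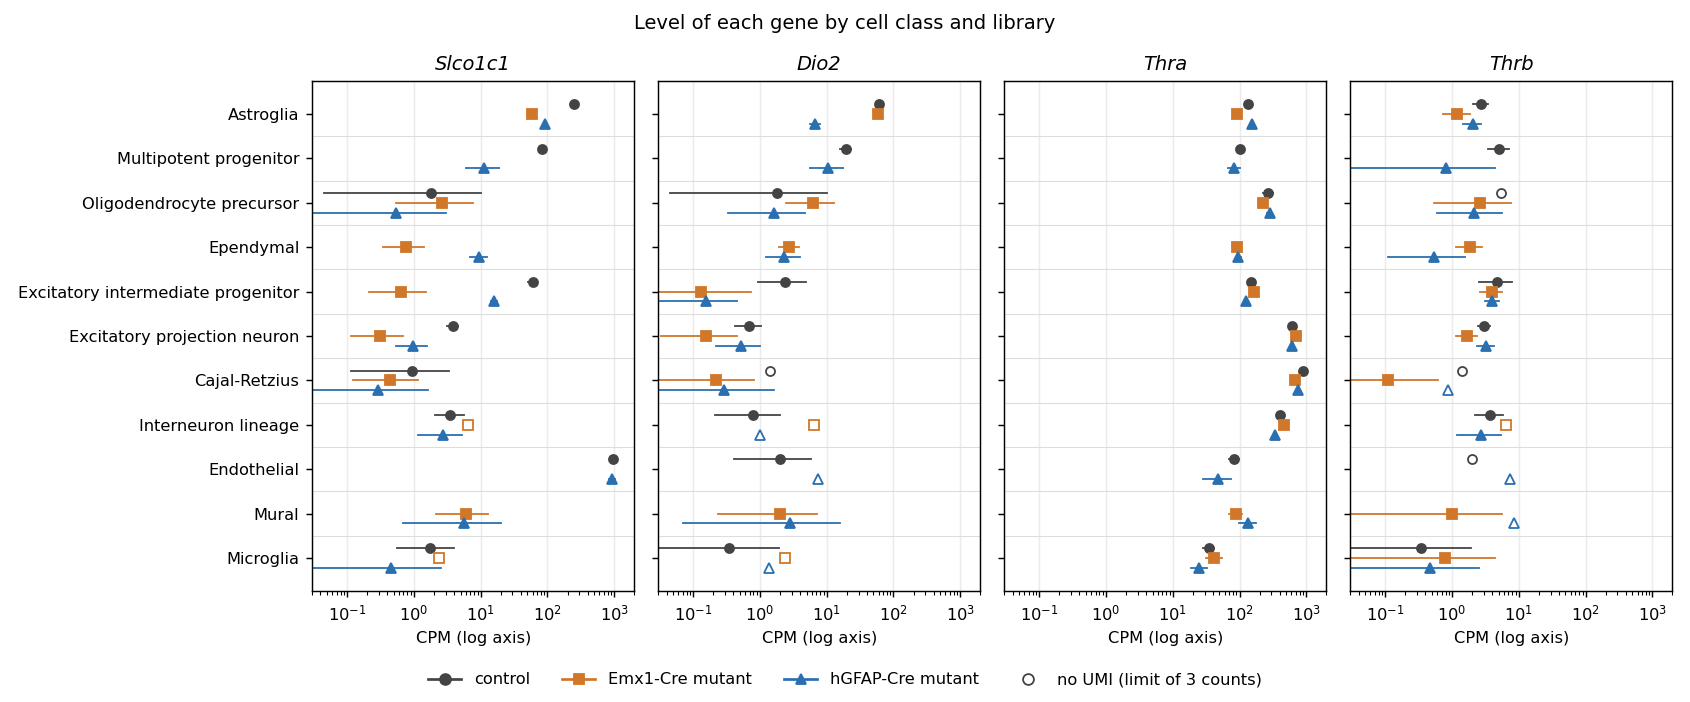
Level of the 4 genes in CPM (horizontal log axis) in each class with at least 50 cells in a library. Points are sums over the cells of a class, lines 95% Poisson intervals, and open symbols classes with no UMI, drawn at the limit of 3 counts. Slco1c1 stands highest in endothelial-like cells (970.2 and 928 CPM), Dio2 in astroglia-like cells of the control and the Emx1-Cre mutant, and Thra in the neuronal classes.

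Dio2, the activating enzyme, was nearly confined to glia and was low in the hGFAP-Cre library. Of all its UMIs in kept cells, astroglia-like cells held 89.8% of 1539 in the control library, 95.1% of 1016 for the Emx1-Cre mutant and 76.7% of 193 for the hGFAP-Cre mutant. Their level was 60.7 CPM in the control (57.5 to 64.0), 57.7 CPM in the Emx1-Cre mutant (54.1 to 61.5) and 6.69 CPM in the hGFAP-Cre mutant (5.66 to 7.86). The control and Emx1-Cre intervals overlapped, with a ratio of 0.951 (0.875 to 1.03). The hGFAP-Cre level was 9.07-fold lower than the control (7.65 to 10.8), a log2 ratio of −2.49. It ranked 19th from the lowest among 9071 genes, a placing that the choice of the gene already used.

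The share of astroglia-like cells with a Dio2 UMI was 34.9% for the control (32.9% to 36.9%), 29.9% for the Emx1-Cre mutant (27.9% to 32.0%) and 3.81% for the hGFAP-Cre mutant (3.17% to 4.54%). Thinned to 2000 UMIs, these were 11.9%, 10.3% and 1.36%. The highest count in a single cell was 14, 13 and 5 UMIs. Projection neuron-like cells, which should lack the enzyme, had thinned shares of 0.179%, 0.0562% and 0.174%, below the hGFAP-Cre astroglia. Their median depths were 5733, 3618 and 4016 UMIs. Multipotent progenitor-like cells came next in the control, at 19.2 CPM (15.9 to 23.1), and were at 10.4 CPM in the hGFAP-Cre mutant (5.55 to 17.8). In that mutant the interval of these cells overlapped that of the astroglia-like cells, so the 2 classes cannot be ordered. All other classes were at or below 6.17 CPM in every library, and the intervals of neighbours in that order overlapped. Microglia-like cells had 1 Dio2 UMI in the control and none in either mutant, which allows up to 2.34 and 1.38 CPM.

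**Figure D2:**
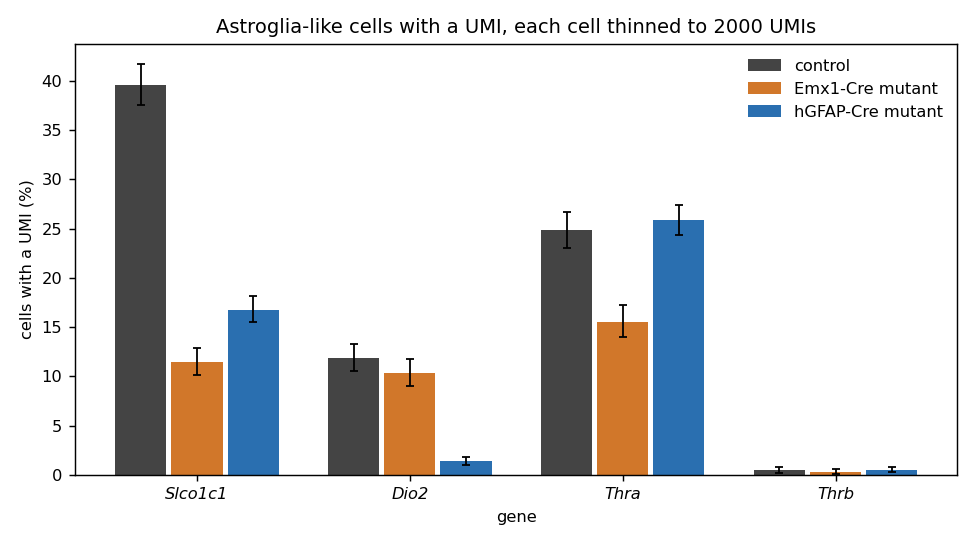
Share of astroglia-like cells (vertical axis, %) with at least 1 UMI of each gene after thinning every cell to 2000 UMIs, by library. Bars start at 0 and error bars are exact 95% Clopper-Pearson intervals. Dio2 is at 11.9% and 10.3% in the control and the Emx1-Cre mutant and at 1.36% in the hGFAP-Cre mutant, while Slco1c1 is below the control in both mutants.

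Different clusters hold most of the class in each library, and the members differed among them. The control's astroglia-like cells lay mainly in cluster 10 (1257 cells, led by Chil1, Slco1c1 and Hopx), cluster 24 (412 cells, led by Lcat, Mfge8 and Dio2) and the cycling cluster 11 (491 cells). Those of the Emx1-Cre mutant lay in cluster 9 (1246 cells, led by Has2, A2m and Tagln) and cluster 11 (630 cells), and those of the hGFAP-Cre mutant in cluster 0 (2927 cells, led by Prm1 and Ephx1). Of these leading genes, Slco1c1, Dio2 and Prm1 were kept out of the genes that made the clusters, as were the other thyroid hormone genes. Within the control, Slco1c1 was at 474 CPM in cluster 10, 133 CPM in cluster 24 and 74.3 CPM in cluster 11, all intervals apart. Dio2 had another order, at 122 CPM in cluster 24, 60.5 CPM in cluster 10 and 31.5 CPM in cluster 11. Both genes were thus lowest in the cycling cells of these 3 clusters. The control's 76 cells in cluster 9 were at 60.7 CPM for Slco1c1, below the cycling cells, and at 40.9 CPM for Dio2, above them.

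In cluster 11, the cycling astroglia-like cells that all 3 libraries share, Dio2 was at 31.5 CPM in the control (27.7 to 35.6), 55.5 CPM in the Emx1-Cre mutant (50.01 to 61.3) and 14.7 CPM in the hGFAP-Cre mutant (9.41 to 21.9). The mutants lay on either side of the control there, with ratios of 1.76 (1.497 to 2.07) and 0.466 (0.293 to 0.710). In cluster 9 the same order held, at 40.9, 65.3 and 10.2 CPM. Slco1c1 in cluster 11 was at 74.3, 55.5 and 12.2 CPM, and in cluster 9 at 60.7, 66.8 and 7.39 CPM. Within these 2 clusters the Emx1-Cre mutant was therefore at 0.746 (0.654 to 0.850) and 1.10 (0.828 to 1.49) of the control, where over the whole class it was at 0.237 (0.221 to 0.254). The Emx1-Cre mutant had no cell in cluster 10, where the control level was highest. The hGFAP-Cre mutant was low in both clusters, at 0.165 and 0.122 of the control. Dividing cells, counted by any Mki67 or Top2a transcript, made up 28.4% of the control class, 46.0% of the Emx1-Cre class and 10.5% of the hGFAP-Cre class. Among cells with neither, the log2 ratios were −2.48 and −1.79 for Slco1c1 and −0.39 and −2.89 for Dio2. In the cycling cluster alone the Emx1-Cre ratio of Slco1c1 was −0.39, under the 1.5-fold mark.

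**Figure D3:**
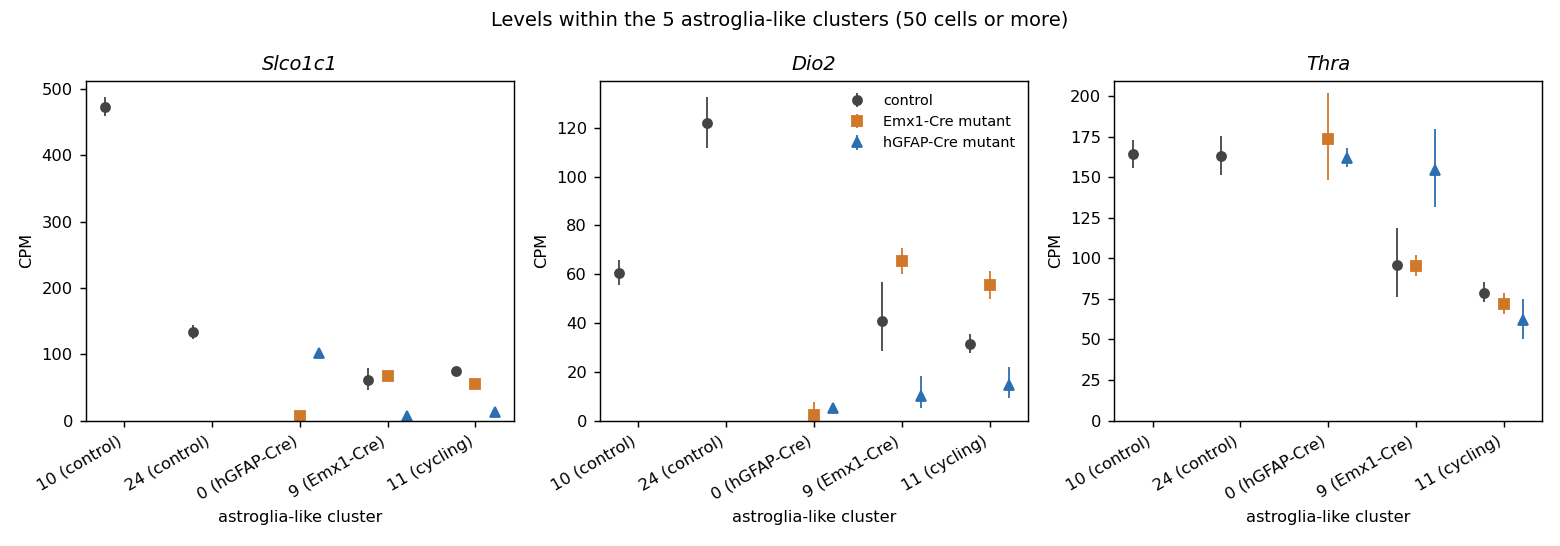
Level in CPM (vertical axis, from 0) of Slco1c1, Dio2 and Thra in the 5 astroglia-like clusters, for each library with at least 50 cells there. Points are sums over cells and lines 95% Poisson intervals. In clusters 9 and 11 the hGFAP-Cre mutant has the lowest level of Slco1c1 and Dio2, and the Emx1-Cre mutant the highest level of Dio2.

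Slco1c1 and Dio2 were also compared cell by cell. Among thinned control astroglia-like cells with a Slco1c1 UMI, 12.7% also had one of Dio2 (10.6% to 15.1%), against 11.3% of the others (9.65% to 13.1%). In the Emx1-Cre mutant the shares were 17.4% (12.8% to 22.9%) and 9.43% (8.12% to 10.9%), and these intervals lay apart. In the hGFAP-Cre mutant they were 2.26% and 1.17%, with overlapping intervals.

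Thra (ENSMUSG00000058756), the receptor gene found in all classes, lies on chromosome 11 at 98740638 to 98769006, plus strand. Its level was highest in neurons. Cajal-Retzius-like cells were at 898, 684 and 743 CPM in the control, the Emx1-Cre and the hGFAP-Cre mutant, and projection neuron-like cells at 610.4, 708 and 615 CPM. These 2 classes overlapped in the Emx1-Cre mutant and lay apart in the other libraries. Interneuron lineage cells followed at 400.01, 465 and 338 CPM, then oligodendrocyte precursor-like cells at 268, 226 and 286 CPM. Among classes with at least 50 cells, microglia-like cells were lowest, at 34.3, 41.4 and 24.9 CPM, and overlapped with endothelial-like cells in the hGFAP-Cre mutant. In astroglia-like cells Thra was at 132 CPM in the control (127 to 137), 90.6 CPM in the Emx1-Cre mutant (86.1 to 95.2) and 154 CPM in the hGFAP-Cre mutant (149 to 159). The intervals lay apart, with log2 ratios of −0.52 and 0.22, both under 1.5-fold. Under 5 of 13 other settings the Emx1-Cre ratio passed 1.5-fold, reaching −0.76 with at least 2000 genes per cell. The sign in the hGFAP-Cre mutant did not hold either, at −0.0029 without dividing cells, −0.33 in the cycling cluster and −0.014 with at least 2000 genes per cell. Thra was at 164 and 163 CPM in the control's clusters 10 and 24, and at 162 CPM in cluster 0 of the hGFAP-Cre mutant, with overlapping intervals. Among the astroglia-like clusters it was lowest in the cycling one in every library, at 78.8, 71.7 and 61.8 CPM, and there overlapped only with cluster 9 of the control (95.8 CPM).

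Reads at the 3′ end of Thra need care. Its last 1075 bases overlap the antisense gene Nr1d1, which encodes a clock repressor, and their exons share 263 bases. The strand setting of the counting is not given in the sources used here. Nr1d1 was counted at 8.92, 5.44 and 5.24 CPM in the astroglia-like cells. The Thra count also pools transcripts with different 3′ ends, of which GENCODE lists 4 as protein coding, so the hormone-binding and the non-binding product cannot be told apart.

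Thrb (ENSMUSG00000021779, chromosome 14, 17660261 to 18038090, plus strand), the second receptor gene, was close to the limit of detection. It had 225, 118 and 190 UMIs in all kept cells of the 3 libraries. In astroglia-like cells it was at 2.72 CPM in the control (2.09 to 3.49), 1.19 CPM in the Emx1-Cre mutant (0.730 to 1.84) and 2.03 CPM in the hGFAP-Cre mutant (1.48 to 2.72). The ratio of the Emx1-Cre mutant was 0.439 (0.251 to 0.736) and that of the hGFAP-Cre mutant 0.747 (0.497 to 1.11). No class with at least 50 cells exceeded 5.10 CPM, the level of the control's multipotent progenitor-like cells. Neighbours in the order of classes overlapped in every library, except astroglia-like and microglia-like cells in the control. Thrb was the 1 gene of the 4 below 10 CPM in every library's astroglia-like cells and was not counted among the genes compared.

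Set against all genes, 3 of the 4 were measured at 10 CPM or more in astroglia-like cells of either library compared. In the Emx1-Cre mutant 27.6% of 8793 genes were at least 1.5-fold lower and 7.24% at least 1.5-fold higher, and Slco1c1 was among the lower ones. The median log2 ratio of all genes was −0.30 there. Centred on it, lower genes made up 43.3% of those past 1.5-fold instead of 79.2%. Slco1c1 then stood at −1.69, Thra at −0.22 and Dio2 at 0.23, so the sign of Dio2 depended on the scaling in this mutant. In the hGFAP-Cre mutant 14.1% of 9071 genes were lower and 12.2% higher, with a median of −0.067, and Slco1c1 and Dio2 were among the lower ones. Both comparisons share the control library.

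The other carriers differed from Slco1c1. Of the 9 transporter genes listed, 4 were measured in astroglia-like cells, 1 of them lower (Slco1c1), 1 higher (Slc7a5) and 2 between in each mutant, with medians of −0.12 and −0.21 beside −0.30 and −0.067 for all genes. With 27.6% of all genes lower in the Emx1-Cre mutant, 1 of 4 is near the background. The share of all genes higher was 7.24% there. In the hGFAP-Cre mutant 14.1% of all genes were lower and 12.2% higher. Slc7a5, the light chain of an amino acid exchanger that also takes thyroid hormone, was at 16.7, 43.5 and 29.3 CPM, log2 ratios of 1.16 and 0.66. Its partner chain Slc3a2 was at 131, 140.5 and 112 CPM. Slc7a5 was above the control in all 7 classes compared for the Emx1-Cre mutant and all 9 for the hGFAP-Cre mutant, microglia-like cells included (2.40, 8.59 and 9.68 CPM). The intervals lay apart in 2 of the 7 and 7 of the 9.

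Among 8 deiodinases and genes that control deiodinase protein, 5 were measured. In the Emx1-Cre mutant 2 were lower (Wsb1 and Secisbp2) and none higher, with a median of −0.32 beside −0.30 for all genes, and centred on that median none was lower. Dio2 alone was lower in the hGFAP-Cre mutant, with a median of −0.30 beside −0.067. Since 27.6% and 14.1% of all genes were lower in the 2 mutants, 2 of 5 and 1 of 5 are near the background. Wsb1, whose product marks the Dio2 enzyme for degradation, was at 90.9, 57.4 and 70.0 CPM. Secisbp2, which helps insert selenocysteine into such enzymes, was at 27.5, 15.8 and 26.7 CPM. Dio3, the inactivating deiodinase, was at 0.132, 0.179 and 0.0452 CPM, from 3, 3 and 1 UMIs. Dio1 had none, which allows up to 0.132, 0.179 and 0.136 CPM. Of 3 binding proteins only Crym, a cytosolic binder of triiodothyronine, was measured, at 5.93, 11.6 and 49.1 CPM. Its log2 ratios were 0.61 and 2.31.

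Several partners of the receptors had lower levels in the mutants. Of 6 receptor genes and partners, Thra and Rxrb were measured, and Rxrb, a retinoid X receptor that pairs with thyroid hormone receptors, was at 27.6, 11.5 and 19.7 CPM. Of 11 corepressors and coactivators, 10 were measured. In the Emx1-Cre mutant 7 were lower and none higher, beside 27.6% of all genes lower and 7.24% higher. Their median was −0.86 beside −0.30 for all genes. After centring 5 were lower, beside 11.7% of all genes. In the hGFAP-Cre mutant 5 were lower and none higher, beside 14.1% of all genes lower and 12.2% higher. Their median there was −0.59 beside −0.067. After centring 5 were lower there too, beside 11.6% of all genes. The corepressor Ncor1 was at 215, 119 and 126 CPM, log2 ratios of −0.82 and −0.75, Gps2 of the same complex at 53.9, 22.6 and 29.2 CPM, and the coactivator Crebbp at 87.6, 40.3 and 52.3 CPM.

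**Figure D4:**
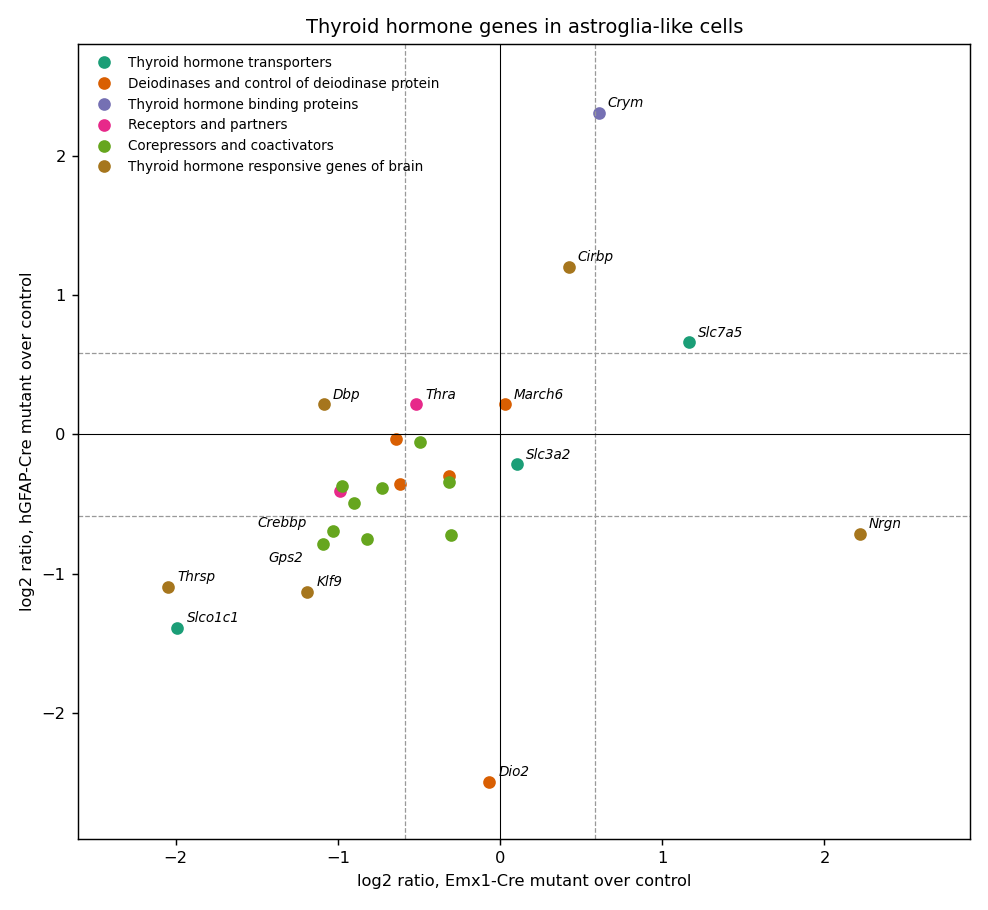
log2 ratio to the control in astroglia-like cells of the Emx1-Cre (horizontal) and hGFAP-Cre mutant (vertical), for most listed genes at 10 CPM or more in a library. Colours give the list, dashed lines 1.5-fold, and genes within 2-fold in both mutants are unlabelled except a few. Dio2 lies near 0 on the horizontal axis and at −2.49 on the vertical one, Slco1c1 at −1.99 and −1.39. Both axes share the control library.

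Genes known to respond to thyroid hormone in brain lay on both sides of the control. Of 10 listed, 5 were measured, with 3 lower and 1 higher in each mutant, with Klf9 and Thrsp lower in both, Dbp lower in the Emx1-Cre mutant and Nrgn lower in the hGFAP-Cre mutant. Of all genes 27.6% and 14.1% were lower and 7.24% and 12.2% higher, and after centring Cirbp also passed 1.5-fold in the Emx1-Cre mutant (0.72). Klf9, a transcription factor gene that the hormone induces, was at 93.6 CPM in control astroglia-like cells (89.7 to 97.7), 38.3 CPM in the Emx1-Cre mutant (35.4 to 41.4) and 40.1 CPM in the hGFAP-Cre mutant (37.5 to 42.9). Thrsp, a regulator of lipid synthesis named for its response, was at 134, 28.6 and 60.0 CPM. Nrgn, a calmodulin-binding protein of neurons, was at 12.1, 74.5 and 5.43 CPM, against 389, 694 and 318 CPM in projection neuron-like cells and 2.75, 7.03 and 1.38 CPM in microglia-like cells. It was above the control in all 7 classes of the Emx1-Cre mutant, 5 with intervals apart. Dbp, a clock output factor, was at 33.2, 12.96 and 39.3 CPM. Cirbp, a cold-inducible RNA-binding protein, was at 211, 285 and 493 CPM. Hr, another induced gene, was below 1.5 CPM in each.

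The differences in Klf9, Cirbp and Nrgn were not limited to astroglia-like cells. Klf9 was below the control in 6 of 7 classes compared for the Emx1-Cre mutant, 4 with intervals apart, and in 8 of 9 for the hGFAP-Cre mutant, 6 with intervals apart. In Cajal-Retzius-like cells it was at 172, 41.6 and 69.8 CPM, and in projection neuron-like cells at 22.5, 9.09 and 4.32 CPM. Cirbp was above the control in all 7 and all 9 classes, every time with intervals apart. Microglia-like cells, whose lineage does not come from cortical progenitors, had Cirbp at 93.4, 183 and 294 CPM, and endothelial-like cells at 114 and 398 CPM in the control and the hGFAP-Cre mutant. Cirbp thus differed in every class compared. In astroglia-like cells Slco1c1 was lower in both mutants and Dio2 in the hGFAP-Cre mutant. The part of Cirbp in these differences was not tested. Slco1c1 in endothelial-like cells of the hGFAP-Cre mutant lay within counting error of the control, and in the 43 cells of the Emx1-Cre mutant below it.

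**Figure D5:**
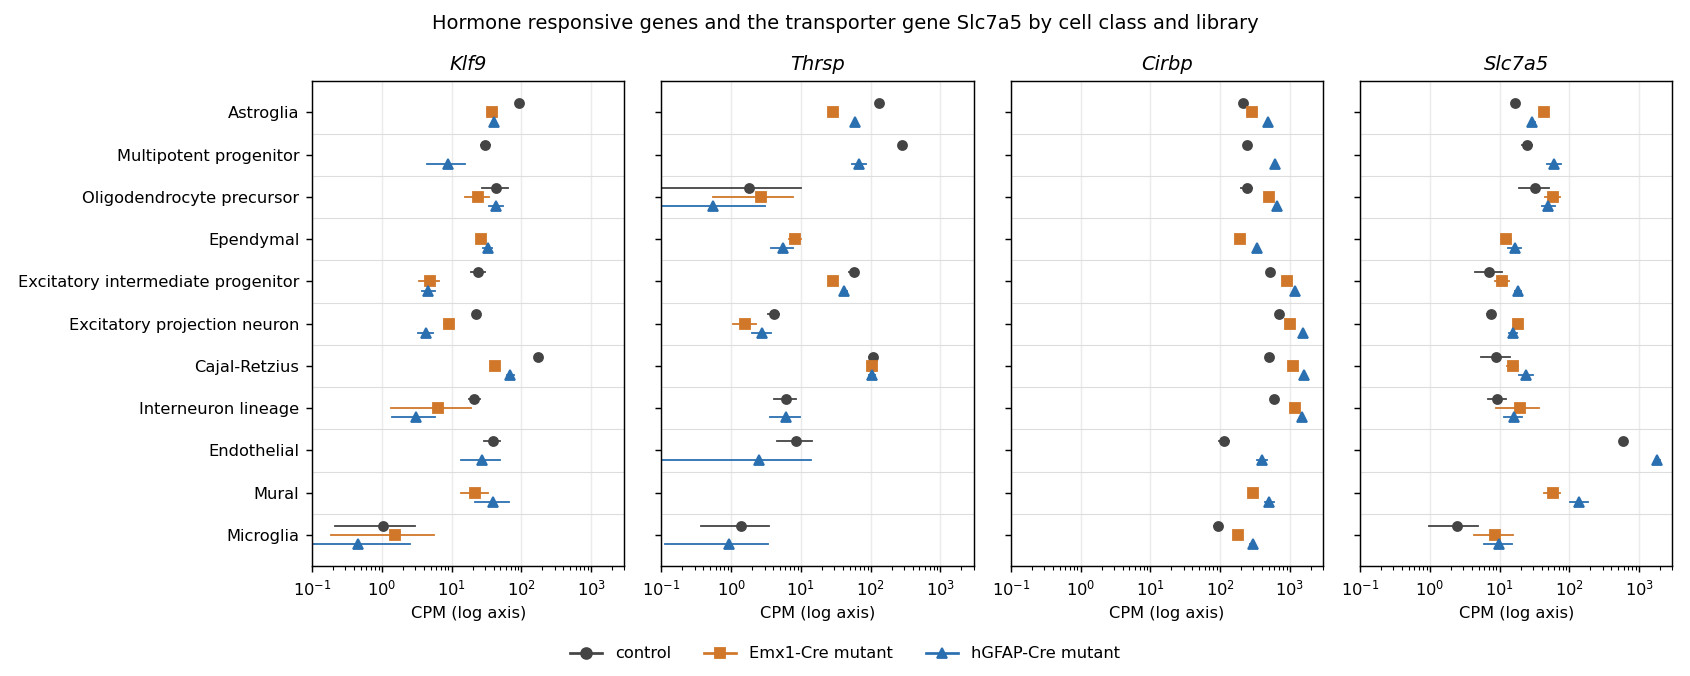
Level in CPM (horizontal log axis) of Klf9, Thrsp, Cirbp and Slc7a5 in each class with at least 50 cells and a UMI of the gene, by library, with 95% Poisson intervals. Cirbp lies above the control in every class compared with intervals apart, microglia-like cells included (93.4, 183 and 294 CPM), Slc7a5 above it with intervals apart in 2 of 7 Emx1-Cre and 7 of 9 hGFAP-Cre classes, and Klf9 below it in most.

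The genes whose levels followed each member most closely were found over 29 pairs of a class and a library, among 10678 genes. Pairs of the same library share its depth and processing, and a correlation here is a description. Dio2 was followed by Acsbg1 (r = 0.94), Cth (0.91), Aldh1l1 (0.91), Paqr8 (0.87) and Fgfr3 (0.86), of which Acsbg1, Aldh1l1 and Fgfr3 are among the markers that named the astroglia-like cells. Acsbg1, an acyl-CoA synthetase, was at 151, 88.1 and 57.1 CPM there, and Cth, which makes cysteine from cystathionine, at 23.5, 40.7 and 10.4 CPM. Slco1c1 was followed by Ephb4 (0.92), Pcx (0.86), Sox13 (0.85), Ptgis (0.85) and Plekhg1 (0.83). Pcx, pyruvate carboxylase, was at 67.3, 23.7 and 30.4 CPM in the astroglia-like cells. Thra went with neuronal genes, Adgrl1 (0.96), Nbea (0.95), Camk2n2 (0.95), Uchl1 (0.95) and Tspyl4 (0.94). Thrb went with Inhbb (0.82), Pcid2 (0.82), Gins1 (0.80), Serinc2 (0.79) and Kctd15 (0.78), from few counts. Dio2 and Slco1c1 had r = 0.47 with each other.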

How the data were processed

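Each deposited matrix gives whole UMI counts of genes in barcodes. Cell Ranger 5.0.0 wrote it, per the file headers, on genome build mm10, per the submitters' processing notes. From these counts, cells with at least 1000 genes and under 10% mitochondrial UMIs were kept, and doublets called by Scrublet in scanpy 1.11.5 (expected rate 0.1) were removed, which took out 4.53%, 7.61% and 8.16% of barcodes. Cells were clustered on 2000 variable genes, without the thyroid hormone genes, Prm1, ERK response and immediate early genes, Map2k1, Map2k2 and sex-linked, mitochondrial, ribosomal and haemoglobin genes. The settings were 30 principal components, 15 neighbours and the Leiden method (leidenalg 0.10.2) at resolution 1. Clusters were named from 15 marker lists: a marker was raised at 2-fold of the other cells and in 25% of the cluster, and a name needed 3. A cluster whose leading genes held more markers of another class also stayed unnamed. Of the 4 unnamed clusters, 7 and 30 had too few raised markers, and 22 and 31 fell under the second rule. Cluster 31 was 48 hGFAP-Cre cells with 10 raised astroglia markers. Counts were summed per class and library to CPM with exact Poisson 95% intervals, ratios had exact conditional intervals, and shares of cells exact Clopper-Pearson intervals. A count of 0 allows up to 3 counts. UMI-based intervals cover counting error only. Genes were compared from 10 CPM in either library, with 5 CPM added before log2, and called from 1.5-fold. Named beside the members were up to 6 genes of each of 6 pathway lists and the 5 genes most like each member, from 20 CPM on, and Slc7a5, Slc3a2, Hr, Dio1, Dio3, Nr1d1, Xist and Ddx3y for their role. Some genes of the lists are not reported here. The members and lists were chosen with earlier results of these data known. Calls and intervals were tested on simulated data with counting error only, which does not cover differences between animals, libraries or cell mixtures. The alternatives tried are in the closing section. Python was 3.11.15, with scipy 1.17.1 and numpy 2.4.6. Gene positions come from GENCODE vM21.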

Additional observations from a re-analysis of the deposited data

Results flagged for a closer look

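In 3 classes the log2 ratios of Thra had opposite signs in the mutants with the counting intervals of both ratios apart from 1. In oligodendrocyte precursor-like cells (−0.24 and 0.091) and microglia-like cells (0.24 and −0.40) the signs were opposite too, with intervals that include 1. In astroglia-like cells the Emx1-Cre ratio was −0.52 and the hGFAP-Cre ratio 0.22, a difference of 0.73. The hGFAP-Cre sign there held in 10 of 13 other settings. In interneuron lineage cells the ratios were 0.22 and −0.24, a difference of −0.46, and in excitatory intermediate progenitor-like cells 0.16 and −0.23, a difference of −0.39. In both of these classes the Emx1-Cre interval came close to 1, at CPM ratios of 1.006 to 1.34 and 1.005 to 1.25. Within clusters of the excitatory intermediate progenitor-like class the opposite signs were not seen. The Emx1-Cre and hGFAP-Cre CPM ratios were 1.21 and 1.02 in cluster 2, 1.46 and 1.04 in cluster 8, and 0.727 and 0.577 in cluster 18. Its cluster 23 had 44 control cells, too few for a comparison. The differences were not tested, since each genotype has 1 library.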

How the results depend on the processing

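No paired analysis was possible because each genotype has 1 library. Each log2 ratio in astroglia-like cells was recomputed under 13 alternatives, 2 of them (a common lowest UMI count, and the cycling cluster alone) added after seeing the data. Values that moved by more than the counting error are given, and the cause was not tested. Dio2 in the Emx1-Cre mutant was 0.23 when centred on the median gene, −0.39 without cycling cells, 0.73 in the cycling cluster and −0.26 after thinning. In the hGFAP-Cre mutant it was lower than the control by over 1.5-fold in all 13, at −3.004 and −1.60 with 1 and 20 CPM added, −2.89 without cycling cells and −0.89 in the cycling cluster. Slco1c1 in the Emx1-Cre mutant was −1.77 with 20 CPM added, −1.69 centred, −2.15 with at least 2000 genes per cell, −2.09 for cells called singly by markers, −2.48 without cycling cells, −0.39 in the cycling cluster and −2.25 after thinning. In the hGFAP-Cre mutant it was −1.26, −1.48, −1.47, −1.79, −2.20 and −1.59 under the same settings except centring, and −0.98 with each library clustered alone. Thra in the Emx1-Cre mutant was −0.22 centred, −0.76 with at least 2000 genes, −0.67 at resolution 2, −0.64 with thyroid genes and Prm1 among the variable genes, −0.64 for cells called singly, −0.62 without cycling cells and −0.13 in the cycling cluster. In the hGFAP-Cre mutant it was −0.014 with at least 2000 genes, 0.080 at resolution 2, 0.33 with libraries clustered alone, −0.0029 without cycling cells, −0.33 in the cycling cluster and 0.13 after thinning. No Thrb ratio moved beyond its counting error, which is wide, though the Emx1-Cre ratio passed 1.5-fold with 1 CPM added (−0.76). That error was taken from the ratio without added CPM. The 5 CPM added before log2 exceeds the Thrb levels in these cells and shrinks its ratios, so this check could hardly show a move. Genes past 1.5-fold numbered 3062 and 2390, and 1282 and 1108 with a lowest level of 50 CPM, where fewer genes are tested. Over the 5 alternatives that clustered the cells again the hGFAP-Cre class held 1625 to 3409 cells and some of its clusters stayed unnamed in 4 of them. The lowest number also left out cells under 2000 genes, and the highest kept doublets. Depth limits genes with few counts, such as Thrb and Dio3.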

Other observations

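Outside glia, Crym, the cytosolic binder of triiodothyronine, was at 9.64 CPM in projection neuron-like cells of the control, 204 CPM in the Emx1-Cre and 46.2 CPM in the hGFAP-Cre mutant. Cluster 16 of that class, with Crym among its leading genes, held 46 of 4704, 646 of 3560 and 108 of 2880 of these cells. The part of this cluster in the Crym levels was not tested. Interneuron lineage cells had no Crym UMI in the control, which allows up to 0.586 CPM, and were at 25.8 and 1.70 CPM in the mutants. Slc7a5 in endothelial-like cells was at 585 CPM in the control and 1825 CPM in the hGFAP-Cre mutant, while its partner chain Slc3a2 was at 1212 and 1017 CPM there.

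Other carriers were found in microglia-like and endothelial-like cells, the second of which also had the highest level of Slco1c1. Slc7a8 was at 97.9, 68.7 and 89.9 CPM in microglia-like cells of the control, the Emx1-Cre and the hGFAP-Cre mutant, and at 77.5 and 52.2 CPM in endothelial-like cells of the control and the hGFAP-Cre mutant. Slc16a10 was highest in microglia-like cells, at 12.7, 10.9 and 8.76 CPM, and at most 3.76 CPM in any other class. Slco1a4 was found in endothelial-like cells, at 36.1 and 49.7 CPM, and was at most 0.179 CPM in the other classes.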
